A study of Mus musculus with 9 samples.

Results

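The mRNA levels of the SMAD family were examined in the kidneys of mice with hyperuricemic nephropathy (HN) and of HN mice treated with pectolinarigenin (PEC), a plant flavonoid. The members were the 8 Smad genes of the mouse and Ski and Skil, which code for corepressors that bind SMAD proteins. They were chosen by name and were 10 of the 55385 genes in the deposited table. RNA-seq covered kidney tissue of male C57BL/6J mice of 8 to 10 weeks, with 3 mice per group and one poly(A)-selected library per mouse. Control mice were labelled as controls and untreated, and HN mice were given adenine at 0.16 g/kg along with potassium oxonate, of which they received 2.4 g/kg, on alternate days over 4 weeks. PEC mice received the same inducers together with oral PEC each day. The sample labels give no PEC dose, and the study's text gives 25 mg/kg for the sequenced mice. Adenine and potassium oxonate together raise uric acid and also injure the tubules, so that the HN group models both at once. Total counts were 5.77e7 to 8.11e7 per library. Nephron genes marked every library as kidney, with Umod between 992 and 1204 and Slc34a1 between 176 and 921 FPKM after scaling between libraries.

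SMAD proteins carry signals of the TGF-beta superfamily from receptors at the cell surface to the nucleus. SMAD2 and SMAD3 are phosphorylated by TGF-beta and activin receptors and SMAD1, SMAD5 and SMAD9 mainly by BMP receptors, and all of these bind SMAD4 before they act on genes. SMAD6 and SMAD7 block this route at the receptors and are themselves induced by it, and SKI and SKIL hold SMAD complexes in a repressed state. In the kidney, SMAD3 is known for driving genes of the extracellular matrix during fibrosis, and BMP signals through SMAD1 and SMAD5 act in nephron formation. Since SMAD activity depends on phosphorylation, mRNA levels do not measure it.

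Levels are given as FPKM computed from the deposited counts and scaled by TMM factors, which set the bulk of genes equal between libraries (TMM-scaled FPKM). Tests are those of edgeR's quasi-likelihood model over all 9 libraries, with p-values adjusted by Benjamini-Hochberg over 15508 genes whose mean FPKM reached 0.5, and a gene was called at an adjusted p of at most 0.05. Of the 10 members, 9 passed this filter, and Smad9, at a mean of 0.284 FPKM, did not. HN mice serve in both HN against Control and PEC against HN, so that these comparisons share libraries, as do those that share the Control or PEC mice.

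The members differed in level by more than the spread between mice at both ends of the order in Control and HN kidneys, and only at the lower end in PEC kidneys. In Control kidneys Ski was the most abundant, with a median of 17.5 TMM-scaled FPKM, followed by Smad4 with a median of 13.5 and Smad3 with a median of 8.91, and these 3 ranges did not overlap one another. Smad7, Smad5, Smad6 and Skil followed with medians of 6.41, 5.41, 5.07 and 4.29 TMM-scaled FPKM, and each of these ranges overlapped the next, while the range of Smad5 (3.44 to 9.49) also overlapped that of Smad3. Smad2 and Smad1 had overlapping ranges around medians of 2.22 and 2.07 TMM-scaled FPKM, and Smad9 lay apart at 0.416. In HN kidneys Ski again stood above all other members at a median of 21.9 TMM-scaled FPKM, and the ranges of Smad4 and Smad3 overlapped. In PEC kidneys Ski had the highest median, 18.8 TMM-scaled FPKM, but its range (3.74 to 20.14) overlapped that of Smad3. The range of Smad3 in PEC kidneys, with a median of 13.04 TMM-scaled FPKM, lay wholly above that of Smad4, with a median of 9.70.

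**Figure D1:**
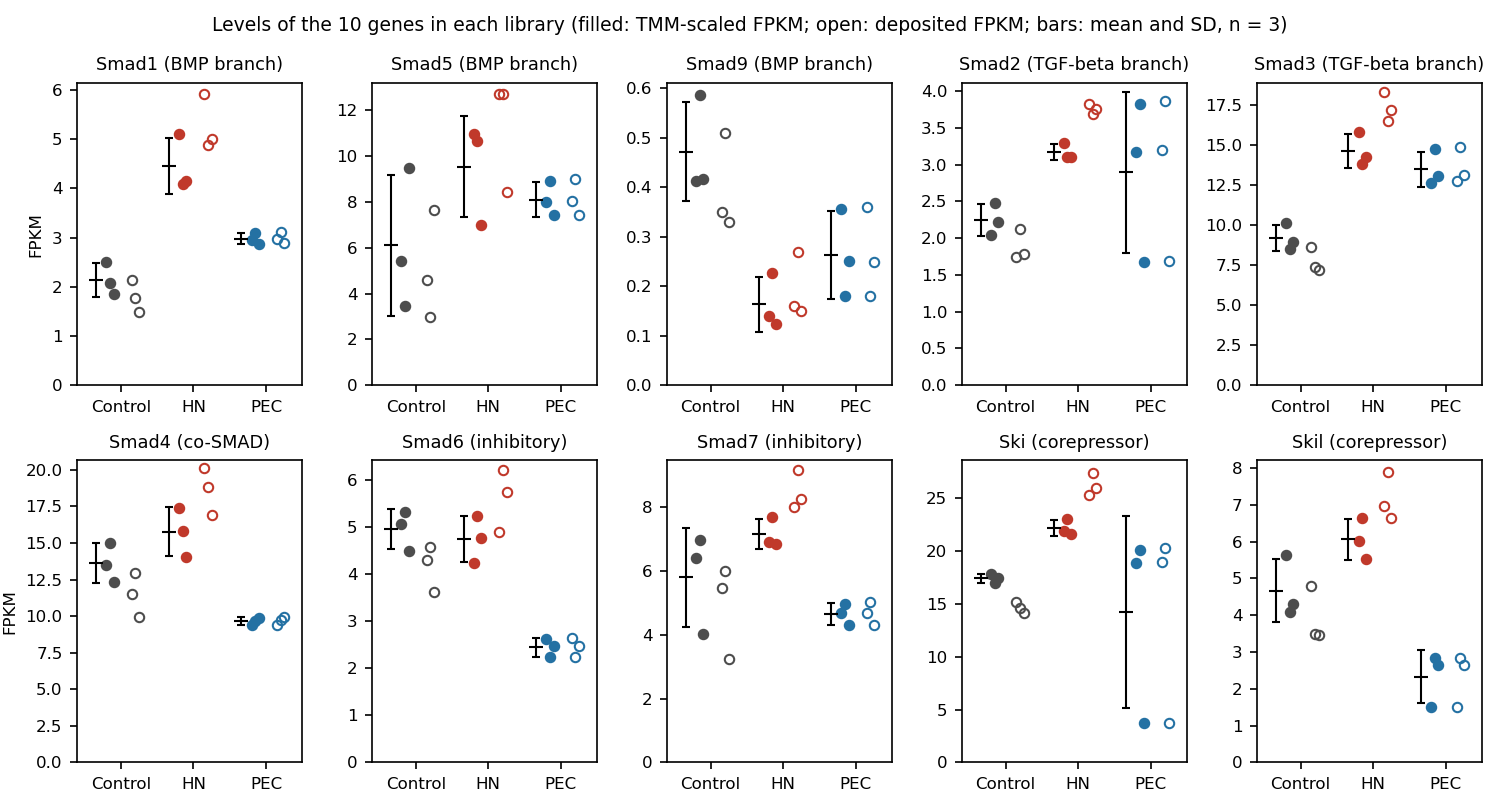
Level of each member in each library, as TMM-scaled FPKM (filled points, with the mean and SD of 3 mice to their left) and as the deposited FPKM (open points), for Control, HN and PEC mice on the horizontal axis. Smad1 and Smad3 are higher in all HN than in all Control mice, Smad4, Smad6 and Skil are lowest in the PEC mice, and Ski and Smad2 each have 1 low PEC mouse.

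In HN against Control, Smad1 and Smad3 rose and no tested member fell. These were 2 of 9 tested members, or 22.2% of them, beside 24.4% of all tested genes called higher and 25.6% called lower. The median log2 fold change of the 9 members was 0.38, against -0.01 over all tested genes. With library totals in place of TMM factors, 8 of 9 members were higher, beside 8202 of the 15508 tested genes. In TMM-scaled FPKM, Smad1, Smad2, Smad3 and Ski had all 3 HN mice above all 3 Control mice, and 30% of tested genes did so. The study's thresholds were a fold change of at least 1.5 and a p of at most 0.05. Here this p was taken as unadjusted and came from the edgeR fit. With these thresholds the members called higher were again Smad1 and Smad3, beside 19.5% of tested genes. Of all tested genes 3028 were so called higher and 2832 lower, and the study itself reported fewer in either direction.

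In PEC against HN, Skil, Smad6, Smad4, Smad7 and Smad1 fell and no tested member rose. These 5 of 9 stood beside 25.6% of all tested genes called lower and 24.3% called higher. The members' median log2 fold change was -0.62, against -0.01 over all tested genes. All 3 PEC mice were below all 3 HN mice in 6 members, these 5 and Ski, and in 32.2% of tested genes. With these thresholds, Skil, Smad4, Smad6 and Smad7 were called lower, beside 19% of tested genes.

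In PEC against Control, Smad1 and Smad3 were higher and Smad4, Smad6 and Skil were lower. Called higher were 28.1% of all tested genes, and called lower were 28.6%. Smad6 and Skil were the members that also passed these thresholds as lower, as did 20.8% of tested genes. The median log2 fold change was -0.29 over the 9 members and 0.01 over all tested genes.

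**Figure D2:**
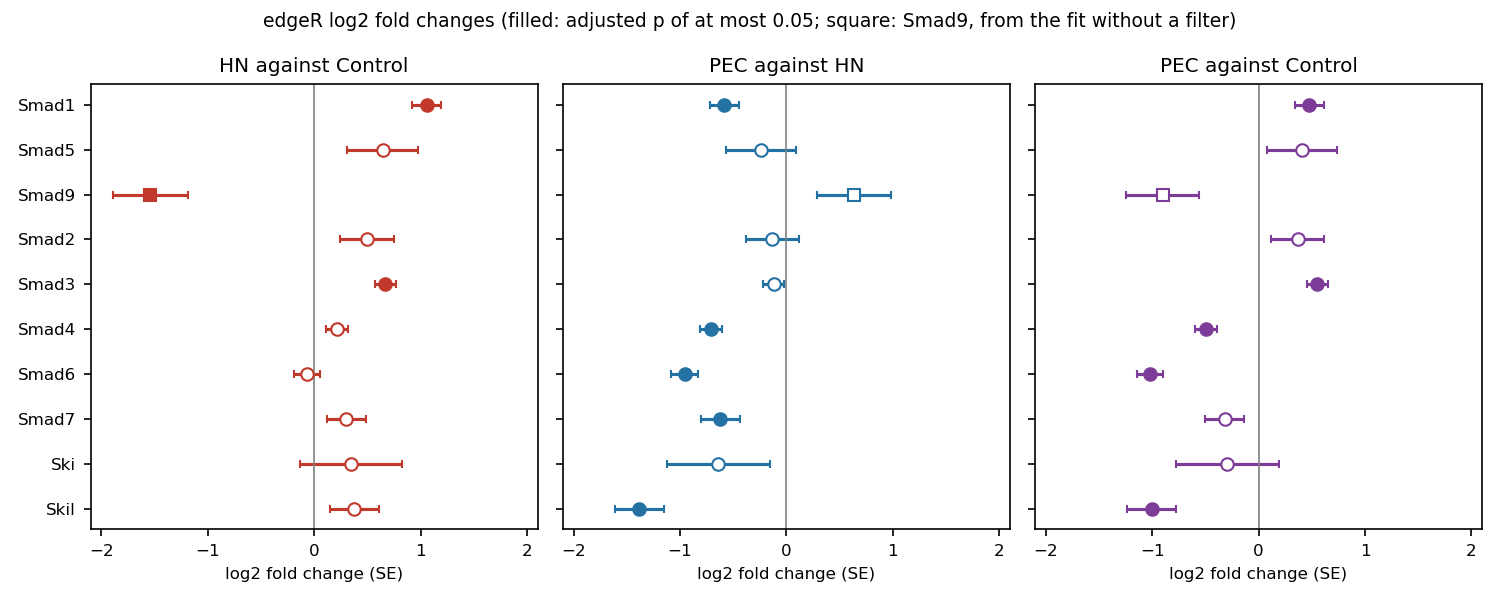
edgeR log2 fold change of each member with its standard error in the 3 comparisons. Filled symbols have an adjusted p of at most 0.05, and the square is Smad9, from the fit without a filter on low values; with library totals in place of TMM, Smad6 moves from -0.06 to 0.45 in HN against Control.

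The receptor-regulated SMADs of the BMP branch come first. Smad1 (ENSMUSG00000031681, GRCm38 chromosome 8, 79338395 to 79399518) stood at 2.51, 2.07 and 1.84 TMM-scaled FPKM in the Control mice, 5.11, 4.10 and 4.16 in the HN mice and 2.96, 3.09 and 2.88 in the PEC mice. Every HN mouse was above every other mouse, and every PEC mouse lay between the HN and the Control mice. Smad1 was 2.08-fold higher in HN than in Control (log2 fold change 1.06, SE 0.14, edgeR adjusted p = 0.000236), and this was the largest change of a tested member in that comparison. In PEC it was 1.497-fold lower than in HN (log2 fold change -0.58, SE 0.13, edgeR adjusted p = 0.00695) and 1.39-fold higher than in Control (log2 fold change 0.48, SE 0.14, adjusted p = 0.0151). Without a filter on low values this last difference was 0.41 on the log2 scale, with an edgeR adjusted p of 0.0533, within a range of 0.00149 to 0.0533 over 21 alternatives.

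Smad5 (ENSMUSG00000021540, chromosome 13, 56703010 to 56742377), the other widely expressed mediator of BMP signals, varied most among the Control mice. Its levels were 5.41, 3.44 and 9.49 TMM-scaled FPKM in Control replicates 2, 4 and 5, 10.97, 10.67 and 7.00 in HN and 7.99, 8.91 and 7.42 in PEC. Control replicate 5 was above HN replicate 12 and above all PEC mice, so that the groups overlapped. In the deposited FPKM, all HN mice (12.70, 12.71 and 8.43) were above all Control mice (4.61, 2.96 and 7.66). The log2 fold change in HN against Control was 0.64 with an SE of 0.33 (edgeR adjusted p = 0.139). With library totals it was 1.18 and passed (edgeR adjusted p = 0.00880), where the median of all tested genes was 0.51. Without Control replicate 5 it was 1.11, with an edgeR adjusted p of 0.00883, within a range of 0.000704 to 0.323 over 21 alternatives. Smad5 did not pass in PEC against HN, with a log2 fold change of -0.24 (SE 0.33, edgeR adjusted p = 0.577). PEC against Control gave 0.41 (SE 0.33, edgeR adjusted p = 0.318). Without Control replicate 5 that value was 0.87 and passed (edgeR adjusted p = 0.0211), within a range of 0.0211 to 0.727 over 21 alternatives. Gm27271, Gm27301 and Gm27834, annotated as small RNA genes, overlap Smad5 on its strand, and none had more than 5 counts in a library.

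Smad9 (ENSMUSG00000027796, chromosome 3, 54755582 to 54801257), the third mediator of BMP signals, had 66 to 224 counts per library. It stood at 0.412, 0.587 and 0.416 TMM-scaled FPKM in the Control group, 0.141, 0.227 and 0.123 in the HN group and 0.356, 0.180 and 0.251 in the PEC group. All HN mice were below all Control mice, and the PEC mice overlapped the HN mice. In the fit without a filter on low values, where 12% of 32380 genes were called lower, Smad9 fell 2.91-fold in HN against Control (log2 fold change -1.54, SE 0.35, edgeR adjusted p = 0.00880). With library totals in place of TMM factors the log2 fold change was -1.01 and the edgeR adjusted p 0.0551. With limma on log2(FPKM + 1) the log2 fold change was -0.23 and passed, and over 13 alternatives the adjusted p ranged from 0.000172 to 0.0716. Its log2 fold change in PEC against HN was 0.64 with an SE of 0.35 (edgeR adjusted p = 0.241). PEC against Control gave -0.90 with an SE of 0.35 (edgeR adjusted p = 0.0836, within a range of 0.0426 to 0.292), with all PEC mice below all Control mice in TMM-scaled FPKM. In the deposited FPKM these groups overlapped, with PEC replicate 1 (0.36) above Control replicates 2 and 5 (0.35 and 0.33).

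In the TGF-beta branch, Smad3 (ENSMUSG00000032402, chromosome 9, 63646767 to 63757994) was measured at 10.12, 8.52 and 8.91 TMM-scaled FPKM in the Control group, 15.8, 13.8 and 14.3 in the HN group and 12.6, 14.7 and 13.04 in the PEC group. All HN and all PEC mice were above all Control mice, and the HN and PEC mice overlapped. Smad3, the main SMAD of matrix genes, was 1.59-fold higher in HN than in Control (log2 fold change 0.67, SE 0.10, edgeR adjusted p = 0.000493). It was 1.47-fold higher in PEC than in Control (log2 fold change 0.55, SE 0.10, edgeR adjusted p = 0.00137). PEC against HN gave a log2 fold change of -0.12 with an SE of 0.10, which did not pass (edgeR adjusted p = 0.337). This call depended on the scaling. With library totals the log2 fold change was -0.33 (adjusted p = 0.0171), where the median of all tested genes was -0.22, and over 21 alternatives the adjusted p ranged from 0.000755 to 0.801. In the deposited FPKM, all PEC mice (12.7, 14.9 and 13.1) were below all HN mice (18.3, 16.5 and 17.2).

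Smad2 (ENSMUSG00000024563, chromosome 18, 76241580 to 76310963), which shares the TGF-beta receptors with Smad3, was less abundant than Smad3 in every library. It was found at 2.04, 2.47 and 2.22 TMM-scaled FPKM in the Control group, 3.30, 3.10 and 3.11 in the HN group and 3.18, 3.83 and 1.68 in the PEC group. The HN mice were all above the Control mice, while PEC replicate 3 was below every other mouse and PEC replicate 2 above every other mouse. In HN against Control the log2 fold change was 0.50 with an SE of 0.25, which did not pass (edgeR adjusted p = 0.134). Without PEC replicate 3, the log2 fold change was 0.49 and the edgeR adjusted p 0.00523, within a range of 0.00145 to 0.276 over 21 alternatives. Without that library PEC against Control gave a log2 fold change of 0.66 in place of 0.37, and the edgeR adjusted p fell from 0.242 to 0.00230, within a range of 0.00230 to 0.707.

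Smad4 (ENSMUSG00000024515, chromosome 18, 73639009 to 73703780) codes for the partner that all receptor-regulated SMADs share. Its levels were 13.5, 15.0 and 12.3 TMM-scaled FPKM in the Control group, 17.4, 15.8 and 14.1 in the HN group and 9.37, 9.70 and 9.90 in the PEC group. The PEC mice were close together and below all other mice, and the HN and Control mice overlapped. In the deposited FPKM, all HN mice (20.12, 18.84 and 16.93) were above all Control mice (11.49, 12.95 and 9.94). Smad4 was 1.63-fold lower in PEC than in HN (log2 fold change -0.71, SE 0.10, edgeR adjusted p = 0.000690). Against Control it was 1.41-fold lower (log2 fold change -0.50, SE 0.10, edgeR adjusted p = 0.00324). With library totals this last difference was -0.20 on the log2 scale and did not pass (adjusted p = 0.15), within a range of 0.000136 to 0.233 over 21 alternatives. HN against Control gave a log2 fold change of 0.21 (SE 0.10, edgeR adjusted p = 0.121). With library totals it was 0.72 and passed (edgeR adjusted p = 0.000488), where the median of all tested genes was 0.51. It passed in 5 of 21 alternatives, over which the adjusted p ranged from 9.04e-05 to 0.345. Gm50126, a pseudogene on the opposite strand, overlaps Smad4 and had at most 2 counts in a library.

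Of the inhibitory SMADs, Smad6 (ENSMUSG00000036867, chromosome 9, 63953076 to 64022059), which acts mainly on BMP signals, stood at 5.07, 5.34 and 4.5 TMM-scaled FPKM in Control. It stood at 4.24, 5.23 and 4.78 in HN and 2.63, 2.24 and 2.47 in PEC. Control and HN mice overlapped, and every PEC mouse was below all of them. In the deposited FPKM, all HN mice (4.90, 6.23 and 5.75) were above all Control mice (4.30, 4.59 and 3.62). Smad6 was 1.94-fold lower in PEC than in HN (log2 fold change -0.96, SE 0.12, edgeR adjusted p = 0.000366) and 2.03-fold lower than in Control (log2 fold change -1.02, SE 0.12, edgeR adjusted p = 0.000169). Both calls held in all 21 alternatives. In HN against Control its log2 fold change was -0.06 (SE 0.12, edgeR adjusted p = 0.696), and it was 0.45 with library totals, where the median of all tested genes was 0.51. With library totals it passed as higher (edgeR adjusted p = 0.0208). It did so in 4 of 21 alternatives, over which the adjusted p ranged from 0.000900 to 0.966.

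Smad7 (ENSMUSG00000025880, chromosome 18, 75367529 to 75395935), which blocks TGF-beta and BMP receptors alike, stood at 6.41, 6.97 and 4.03 TMM-scaled FPKM in the Control group, 6.92, 7.71 and 6.86 in the HN group and 4.67, 4.98 and 4.31 in the PEC group. All PEC mice were below all HN mice, and Control replicate 5 was the lowest of all. Smad7 was 1.54-fold lower in PEC than in HN (log2 fold change -0.62, SE 0.18, edgeR adjusted p = 0.0212). The log2 fold change was -0.57 without HN replicate 8, -0.62 without PEC replicate 1 and -0.55 without PEC replicate 3, where the edgeR adjusted p was 0.0657, 0.0524 and 0.0654. This p ranged from 0.00110 to 0.0657 over 21 alternatives. Neither HN against Control (log2 fold change 0.30, SE 0.18, edgeR adjusted p = 0.206) nor PEC against Control (-0.32, SE 0.18, adjusted p = 0.168) passed. With library totals HN against Control gave 0.81 and passed (edgeR adjusted p = 0.00722), where the median of all tested genes was 0.51. HN against Control passed in 4 of 21 alternatives, over which the adjusted p ranged from 0.00116 to 0.469. In the deposited FPKM, all HN mice were above all Control mice. Without Control replicate 5, PEC against Control gave -0.52 and passed (edgeR adjusted p = 0.00341), within a range of 0.00341 to 1.00 over 21 alternatives.

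Among the corepressors, Skil (ENSMUSG00000027660, chromosome 3, 31095058 to 31122573), itself a rapid target of TGF-beta signals, was called lower in PEC against HN and in PEC against Control. It was measured at 5.65, 4.07 and 4.29 TMM-scaled FPKM in the Control group, 6.03, 6.63 and 5.53 in the HN group and 1.51, 2.83 and 2.64 in the PEC group. All PEC mice were below all other mice, with PEC replicate 1 the lowest, and HN and Control mice overlapped. In the deposited FPKM, all HN mice (6.96, 7.89 and 6.65) were above all Control mice (4.80, 3.50 and 3.45). HN against Control gave a log2 fold change of 0.38 and did not pass (SE 0.23, edgeR adjusted p = 0.205). With library totals it was 0.89 and passed (edgeR adjusted p = 0.00797), where the median of all tested genes was 0.51. It passed in 4 of 21 alternatives, over which the adjusted p ranged from 0.000854 to 0.415. Skil was 2.61-fold lower in PEC than in HN (log2 fold change -1.38, SE 0.23, edgeR adjusted p = 0.00145) and 2.01-fold lower than in Control (log2 fold change -1.01, SE 0.23, edgeR adjusted p = 0.00544). With offsets that remove trends with GC content and transcript length, the difference from HN was -0.73 on the log2 scale (edgeR adjusted p = 0.0301, within a range of 4.20e-08 to 0.0301), smaller than those of Smad6 (-0.95) and Smad4 (-0.83). With the same offsets the difference from Control was -0.30 on the log2 scale and did not pass (edgeR adjusted p = 0.296), within a range of 8.66e-05 to 0.296. Skil had the longest transcript model of the members, 10748 bases.

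Ski (ENSMUSG00000029050, chromosome 4, 155154075 to 155222535) was found at 17.9, 17.0 and 17.5 TMM-scaled FPKM in the Control group, 21.9, 23.1 and 21.6 in the HN group and 18.8, 20.1 and 3.74 in the PEC group. HN mice were all above the Control mice, and PEC replicate 3 was far below every other library. Ski passed in no comparison, with log2 fold changes of 0.35 (SE 0.48, edgeR adjusted p = 0.588) in HN against Control and -0.64 (SE 0.48, adjusted p = 0.297) in PEC against HN. Without PEC replicate 3 the value for HN against Control was 0.34 (SE 0.07, edgeR adjusted p = 0.00306), within a range of 0.00306 to 0.713 over 21 alternatives. Without that library PEC against HN gave -0.17 (edgeR adjusted p = 0.0994), within a range of 0.0289 to 0.444. Ski was the only member with a level under 1/3 of those of both other mice of its group. In PEC replicate 3, 169 of the tested genes, or 1.09%, were so, against 68 to 139 genes in the other 8 libraries, a count that was made after the values had been seen.

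Ratios between members within a library do not depend on the scaling between libraries. With 3 mice against 3, the exact two-sided permutation test of a ratio cannot give a p below 0.1, and 18 tests were made. Smad7 to Smad6, the balance of the inhibitors, was 1.27, 1.31 and 0.896 in the Control group, 1.63, 1.47 and 1.43 in the HN group and 1.78, 2.22 and 1.74 in the PEC group. The 3 groups did not overlap, and in each of the 3 comparisons the exact permutation p was 0.1 and the adjusted p 0.36. The sum of Smad6 and Smad7 to the sum of the receptor-regulated SMADs was 0.560, 0.720 and 0.373 in the Control group, 0.316, 0.406 and 0.406 in the HN group and 0.269, 0.235 and 0.269 in the PEC group. The PEC mice were below all others (exact permutation p = 0.1, adjusted p = 0.36 against either group), 1.45-fold lower than HN and 2.07-fold lower than Control as a ratio of geometric means. HN and Control mice overlapped in this ratio.

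The sum of Smad2 and Smad3 to that of Smad1, Smad5 and Smad9 was 1.46, 1.81 and 0.948 in the Control group, 1.18, 1.13 and 1.54 in the HN group and 1.40, 1.52 and 1.40 in the PEC group. All groups overlapped in this balance of the branches, and no exact permutation p was below 0.4. Smad3 exceeded Smad2 by 3.45 to 7.77-fold in every library, with the highest ratio in PEC replicate 3. Ski and Skil together stood at 1.40 to 2.37 times Smad4 in 8 libraries and at 0.645 times in PEC replicate 3. The ratio of Skil to Ski was 0.240 to 0.316 in the Control and HN mice and 0.0801, 0.141 and 0.707 in the PEC mice, so that the PEC mice lay on both sides of all others. Among the 8 Smads, Smad3 made up 20.6% ± 1.54 of the summed TMM-scaled FPKM in the Control group, 24.6% ± 1.75 in the HN group and 30.3% ± 1.23 in the PEC group (SD, n = 3), and Smad4 made up 30.6% ± 2.92, 26.4% ± 0.734 and 21.8% ± 1.65. The sum itself was 44.6 ± 0.869 in the Control group, 59.6 ± 4.85 in the HN group and 44.5 ± 2.91 in the PEC group (SD, n = 3).

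**Figure D3:**
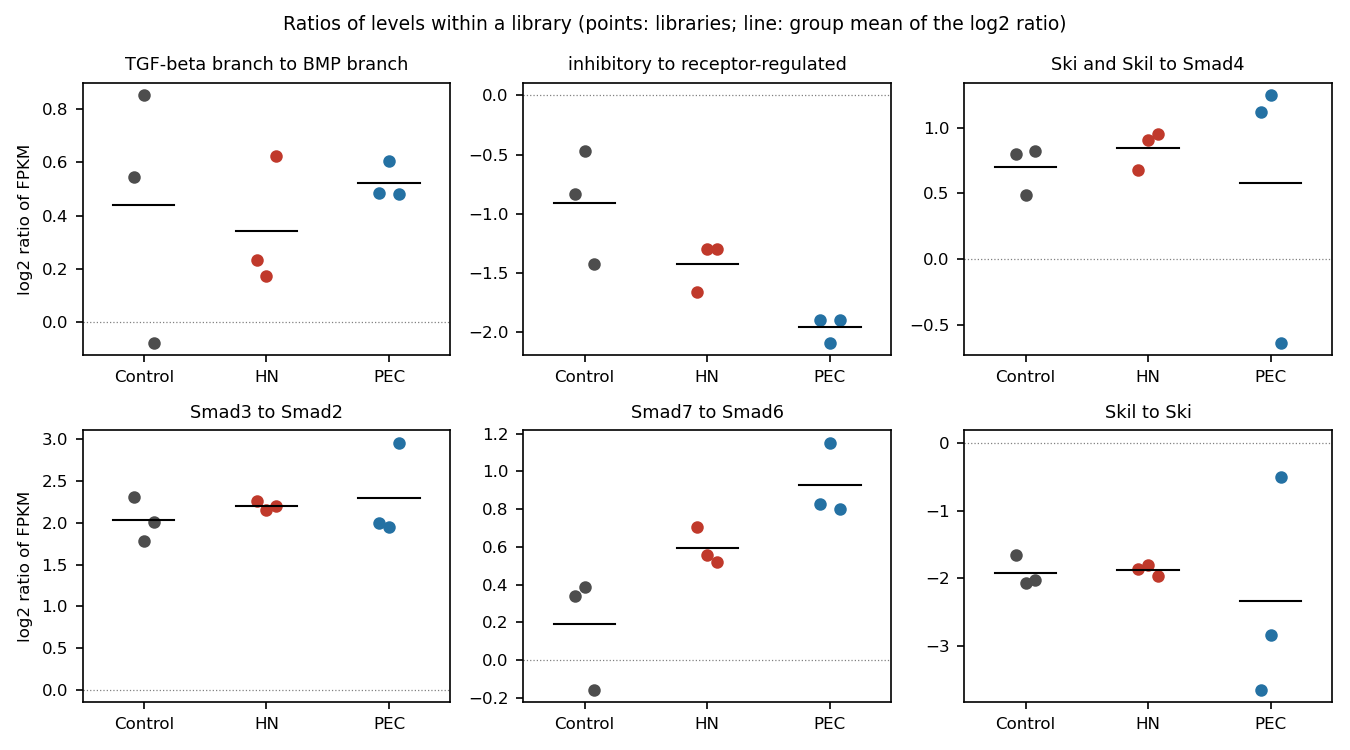
Log2 ratios of FPKM between members within each library for Control, HN and PEC mice, with one point per mouse and a line at the group mean. Smad7 to Smad6 separates the 3 groups, the ratio of inhibitory to receptor-regulated SMADs is lowest in the PEC mice, and replicate 3 stands apart from the other PEC mice in Ski and Skil to Smad4, Smad3 to Smad2 and Skil to Ski.

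Smad3 and Smad6 are neighbours on chromosome 9, on the same strand and 195 kb apart with 3 annotated genes between them, and yet differed in course. In PEC kidneys Smad3 stood above and Smad6 below the Control level. RefSeq promoter windows on GRCm38.p6 matched 6 of the 10 members, Smad1, Smad3, Smad5, Smad6, Smad9 and Ski, in 8 windows. The 250 bases before the start of Smad3 (chr9:63757995-63758244) and of Smad6 (chr9:64022060-64022309), both on the minus strand, are shown because these neighbours diverged. Capitals mark the GC box GGGCGG on either strand.
Smad3: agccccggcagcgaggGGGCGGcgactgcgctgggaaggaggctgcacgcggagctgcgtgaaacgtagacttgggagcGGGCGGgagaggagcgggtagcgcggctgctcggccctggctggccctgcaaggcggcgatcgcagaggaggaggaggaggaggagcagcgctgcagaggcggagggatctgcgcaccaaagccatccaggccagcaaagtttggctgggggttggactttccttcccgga
Smad6: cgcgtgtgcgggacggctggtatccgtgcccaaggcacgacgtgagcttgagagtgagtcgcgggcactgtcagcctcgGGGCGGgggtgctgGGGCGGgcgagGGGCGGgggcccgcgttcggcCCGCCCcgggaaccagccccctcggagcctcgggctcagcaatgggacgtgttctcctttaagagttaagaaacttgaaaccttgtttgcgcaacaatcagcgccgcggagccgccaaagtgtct
Both strands of the 250 bases were searched for the palindromic SMAD box GTCTAGAC, the short SMAD element CAGAC, the GC-rich SMAD element GGCGCC and the GC box GGGCGG, and matches of different motifs were allowed to overlap. Smad3 held 2 GC boxes and Smad6 held 4, and neither window held any of the other 3 motifs. CAGAC was found in 1 of the 8 member windows, 1 of the 3 of Smad5, and GGCGCC in 1 window each of Ski, Smad5 and Smad9, and the GC box was found in all 8, with 1 to 7 matches each. Over all 32851 promoter windows, GGGCGG was found in 32.7%, CAGAC in 42.2%, GGCGCC in 9.59% and GTCTAGAC in 0.167%. A match is a description of the letters, and binding was not measured.

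The genes around the SMADs were read from 5 lists, and their counts stand beside all tested genes, of which 24.4% were called higher and 25.6% lower in HN against Control and 24.3% and 25.6% in PEC against HN. With limma, 8106 of 15508 genes were higher and 1690 lower in HN against Control, and 2527 and 6103 in PEC against HN. Of 21 ligands and receptors tested, 11 rose and 2 fell in HN against Control, and 1 rose and 14 fell in PEC against HN, with 15 and 1 and then 1 and 17 in limma. The 4 largest changes in HN were those of Inhba and Inhbb, which code for activin subunits, and of Tgfb2 and Tgfb3. Inhba stood at 0.0929 ± 0.0422 TMM-scaled FPKM in the Control group, 3.64 ± 0.902 in the HN group and 0.296 ± 0.0996 in the PEC group (SD, n = 3), with a log2 fold change of 5.29 in HN against Control (SE 0.44, edgeR adjusted p = 2.20e-05) and -3.62 in PEC against HN (SE 0.40, adjusted p = 0.000186). Tgfb2 rose by 3.24 (SE 0.18, edgeR adjusted p = 3.74e-06) and then fell by 1.31 on the log2 scale (adjusted p = 0.000374). Inhbb and Tgfb3 rose by 2.96 and 2.18 in HN and fell by 1.52 and 0.90 in PEC against HN on the log2 scale, each with an edgeR adjusted p of at most 0.00969. In PEC against Control, 8 of the list were higher and 6 lower, beside 28.1% and 28.6% of all tested genes.

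The 20 genes of SMAD turnover and access to receptors had 4 higher and 6 lower in HN against Control and 3 higher and 9 lower in PEC against HN with edgeR. limma on the deposited FPKM, which differs in both model and scaling, gave 15 higher and 1 lower and then 2 higher and 14 lower. Against Control, the PEC mice had 6 higher and 11 lower with edgeR, beside 28.1% and 28.6% of all tested genes. With limma they had 6 higher and 5 lower, beside 39.6% and 18.7%. Pmepa1, a TGF-beta target that keeps SMAD2 and SMAD3 from the receptors, rose by 1.91 on the log2 scale in HN (SE 0.16, edgeR adjusted p = 2.38e-05) and fell by 0.80 in PEC against HN (adjusted p = 0.00332). Smurf1, a ubiquitin ligase of BMP SMADs, followed with 1.07 and -0.46, and both passed. Usp11, a deubiquitinase, rose by 1.24 in HN and stood at 0.29 in PEC against HN, which did not pass (edgeR adjusted p = 0.169). Wwp1, a ubiquitin ligase, fell by 0.86 in HN and by a further 0.56 in PEC on the log2 scale (edgeR adjusted p = 0.000115 and 0.00163).

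Of 19 tested nuclear partners of SMADs, 13 rose and 1 fell in HN against Control, and 0 rose and 9 fell in PEC against HN, with 18 and 0 and then 0 and 16 in limma. The counts in PEC against Control were 7 higher and 5 lower, beside 28.1% and 28.6% of all tested genes. In limma they were 11 and 2, beside 39.6% and 18.7%. Runx1 rose by 4.04 on the log2 scale in HN (SE 0.16, edgeR adjusted p = 1.45e-06) and fell by 0.85 in PEC (adjusted p = 0.00124), and Runx3 rose by 2.29 and fell by 1.08. Atf3, a stress-induced factor, and Tgif1, a corepressor of SMADs, rose by 3.52 and 1.60 in HN and did not pass in PEC against HN, with log2 fold changes of -0.77 and 0.12.

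Genes known to respond to TGF-beta rose in 16 of 17 tested and fell in 0 in HN against Control, with a median log2 fold change of 2.19 against -0.01 over all tested genes. With PEC, 0 rose and 10 fell relative to HN, with a median of -0.90. In PEC against Control 13 were higher and 0 lower, beside 28.1% and 28.6% of all tested genes. In limma, 17 were higher and 0 lower in HN against Control, and 0 higher and 12 lower in PEC against HN. Col1a1 stood at 3.38 ± 0.295 TMM-scaled FPKM in the Control group, 66.3 ± 3.68 in the HN group and 35.5 ± 4.71 in the PEC group (SD, n = 3). Its log2 fold change was 4.29 in HN against Control (SE 0.13, edgeR adjusted p = 5.75e-07) and -0.90 in PEC against HN (SE 0.11, adjusted p = 0.000316). Timp1 rose by 5.73 on the log2 scale in HN and gave -0.46 in PEC against HN, which did not pass (edgeR adjusted p = 0.165). Ltbp2 went from 4, 8 and 4 counts in the Control mice to 6779, 6067 and 6730 in the HN mice and 2069, 2829 and 1966 in the PEC mice, and its log2 fold change of 9.71 in HN rests on those few Control counts.

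Of 8 tested genes known to respond to BMP signals, 2 were higher and 2 lower in HN against Control, and 0 were higher and 1 lower in PEC against HN, with 3 and 0 and then 0 and 2 in limma. Grem1, a secreted BMP antagonist, rose by 2.64 in HN (SE 0.41, edgeR adjusted p = 0.000721) and fell by 2.21 in PEC on the log2 scale (adjusted p = 0.00220). Id3 rose by 0.86 and Id2 and Id4 fell by 1.03 and 0.77 on the log2 scale in HN, with edgeR adjusted p-values of 0.0211, 0.0273 and 0.00180. In limma Id2 and Id4 did not pass (adjusted p = 0.221 and 0.151). In PEC against Control, 0 were higher and 2 were lower, beside 28.1% and 28.6% of all tested genes. With limma 0 were higher and 0 lower in that comparison, beside 39.6% and 18.7%.

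**Figure D4:**
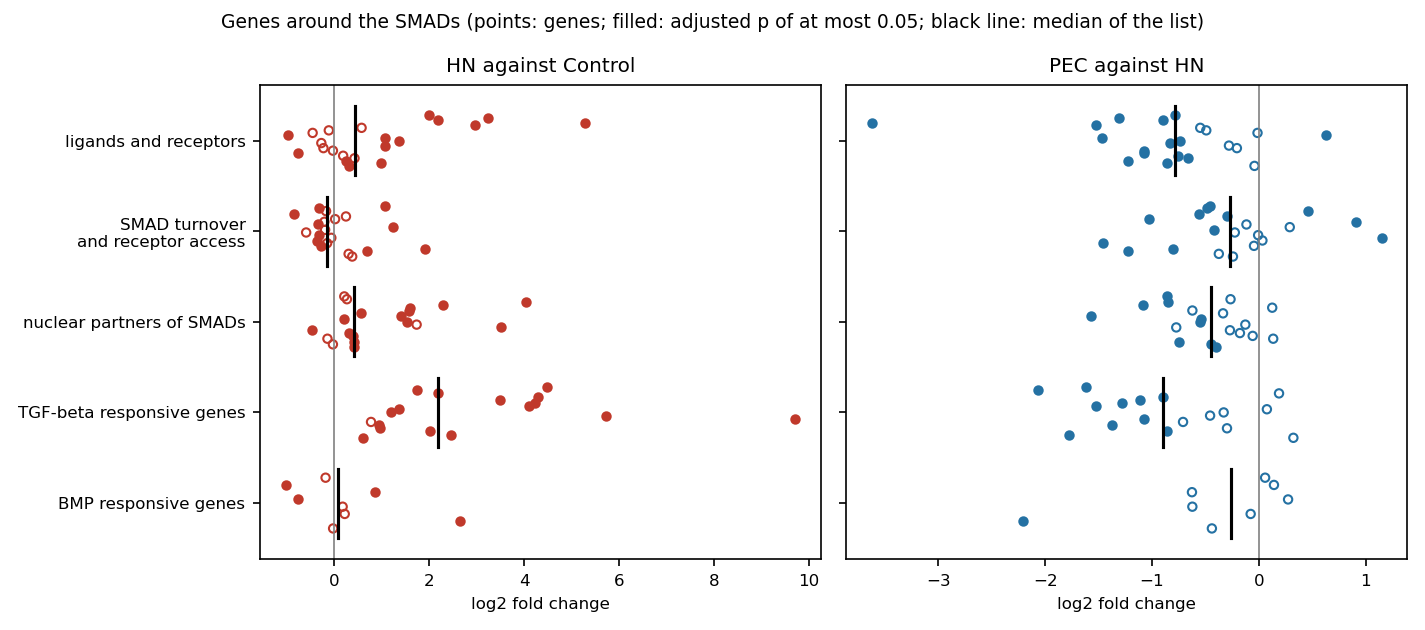
edgeR log2 fold changes of single genes from 5 lists around the SMADs in the HN against Control (left) and PEC against HN (right) comparisons, with a black line at the median of each list and filled points for an adjusted p of at most 0.05. The TGF-beta responsive genes lie to the right in HN, with a median of 2.19, and have a median of -0.90 in PEC against HN, where 10 of 17 pass as lower and 3 lie to the right of 0. The BMP responsive genes lie on both sides of 0 in both.

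Cell type markers moved with the groups. Their counts stand beside 24.4% of all tested genes called higher and 25.6% called lower in HN against Control with edgeR. Fewer cells of a type and less RNA per cell cannot be told apart in bulk kidney RNA. Fibroblast and pericyte markers rose in 5 of 5 tested in HN against Control, and their summed level was 27.1, 26.0 and 19.5 TMM-scaled FPKM in the Control group, 78.5, 76.4 and 66.0 in the HN group and 41.4, 45.0 and 48.5 in the PEC group, with Pdgfrb the most abundant in 8 of 9 libraries. Leukocyte markers rose in 5 of 5 tested of 6 listed, with sums of 4.23, 3.88 and 5.58 in the Control group, 58.0, 59.2 and 49.5 in the HN group and 23.6, 29.2 and 29.9 in the PEC group. Cd68 or Adgre1 was the most abundant of them in every library, and Cd79a was under the filter. Proximal tubule markers fell in 6 of 6, from sums of 1354, 1364 and 1526 in Control to 322, 314 and 312 in HN, and stood at 723, 845 and 526 in PEC, with Slc34a1 the most abundant in every library. In both marker lists that rose, the sums of the PEC mice lay between those of the Control and the HN mice, while single markers differed. Pdgfra in the PEC mice (4.73, 5.17 and 5.26) lay within the range of the Control mice, and Cd68 in the PEC mice (16.5, 15.9 and 18.9) overlapped the HN mice. No marker of these 3 lists was at 0 in any library, and the part of cell composition in the members' changes was not tested.

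Collecting duct markers fell in 4 of 4 in HN against Control with edgeR and in 2 with limma, with mean sums of 358 ± 118 in the Control group, 138 ± 31.6 in the HN group and 215 ± 39.0 in the PEC group (SD, n = 3), with Aqp2 the most abundant. Thick limb and distal tubule markers fell in 3 of 4, all but Umod, the most abundant of them (edgeR adjusted p = 0.413), with sums of 1359 ± 76.6, 1257 ± 84.2 and 1306 ± 59.7. With limma 2 fell, and Umod was higher, by 0.60 on the log2 scale (adjusted p = 0.000491). Endothelial markers rose in 1 and fell in 2 of 6 with edgeR and rose in 3 and fell in 0 with limma, with sums of 57.4 ± 3.35, 50.6 ± 1.49 and 54.4 ± 10.2. Podocyte markers passed in 0 of 4 with edgeR and rose in 4 of 4 with limma on the deposited FPKM, with sums of 65.1 ± 1.73, 62.5 ± 5.49 and 71.9 ± 4.76 TMM-scaled FPKM.

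Some library measures also moved with the groups. Mitochondrially encoded genes took 12.9 to 16.3% of counts in Control, 6.01 to 6.34% in HN and 10.3 to 13.7% in PEC. Genes annotated as ribosomal RNA took 0.117, 0.682 and 0.119% in the PEC mice and at most 0.00284% in the others. In PEC against HN the log2 fold change fell with transcript length across genes, with medians of 0.39 in the shortest 25% and -0.30 in the longest 25% of tested genes. These medians were -0.10 and 0.03 in HN against Control and 0.26 and -0.24 in PEC against Control. Of the 9 tested members, 7 were longer than the median gene of 4129 bases. With the length trend removed, Skil, Smad1, Smad4, Smad6 and Smad7 were again the members that fell in PEC against HN, with the log2 fold change of Smad1 at -0.37 in place of -0.58 and that of Skil at -1.01 in place of -1.38. These 5 of 9 stood beside 3320 of the 15508 tested genes called lower and 3938 called higher. Smad1 and Smad7 then passed with edgeR adjusted p-values of 0.0471 and 0.0416, close to the threshold.

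The number of members that passed in HN against Control differed between alternatives. With library totals in edgeR, which changes the scaling alone, 8 of 9 were higher, beside 8202 of the 15508 tested genes. Without PEC replicate 3, 4 of 9 were higher, beside 3859 of all tested genes. With limma on log2(FPKM + 1) of the deposited FPKM, 8 of 9 members were higher, all but Ski, beside 52.3% of all tested genes called higher. limma had 6 of 9 lower in PEC against HN, beside 39.4% of genes, with Smad3 added to the 5 of edgeR. In PEC against Control Smad1 and Smad3 were higher and Smad6 and Skil lower in limma, beside 39.6% of genes called higher and 18.7% called lower. The deposited FPKM carries no TMM factor, and the median log2 fold change of all tested genes was 0.35 in HN against Control, -0.19 in PEC against HN and 0.19 in PEC against Control in limma. With library totals in edgeR these medians were 0.51, -0.22 and 0.31. With limma on FPKM rescaled to a common sum the median was 0.76 in HN against Control, where Smad1 and Smad3 stood at 1.71 and 1.51. The split of all calls in HN against Control moved with it, from 3780 higher and 3973 lower with TMM to 8106 higher and 1690 lower with limma. The split in PEC against HN moved from 3767 and 3971 to 2527 and 6103, and in PEC against Control from 4350 and 4440 to 6139 and 2896. Relative to these medians, the members' median log2 fold change in limma was 0.74 against 0.35 in HN and -0.74 against -0.19 in PEC against HN.

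**Figure D5:**
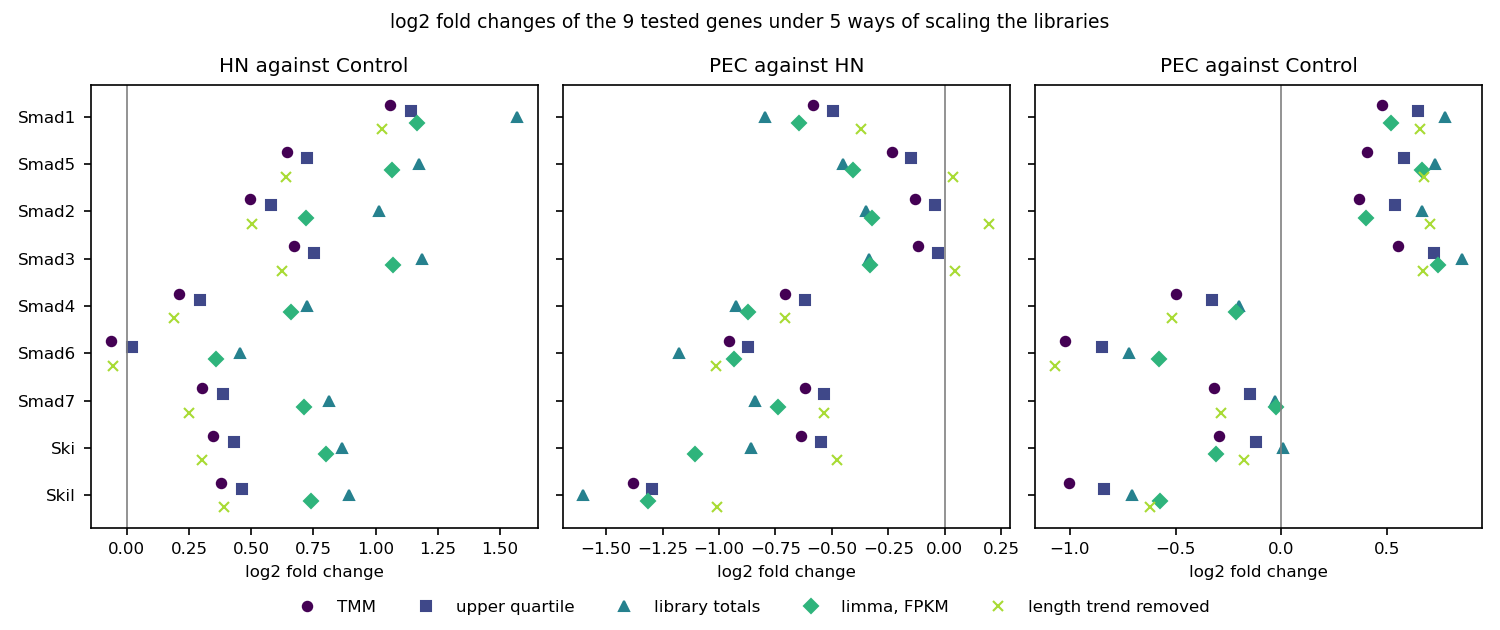
Log2 fold change of the 9 tested members under 5 ways of scaling the libraries (symbols), in the 3 comparisons. In HN against Control, library totals and limma on FPKM place every member to the right of its TMM value, and Smad6 moves from -0.06 to 0.45 with library totals; in PEC against HN, Skil, Smad6, Smad4, Smad7 and Smad1 stay to the left of 0 under all 5.

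The tested genes nearest to a member in pattern were found by the root mean square difference of log2 levels, each centred on its mean over the 9 libraries. For Smad3 these were Uck2, at a difference of 0.04 on the log2 scale, Tmem165 at 0.07 and S1pr3 at 0.09. For Smad1, the tested member with the largest change in HN, they were Pdgfa at 0.08, Rela at 0.10 and Zfp36l1 at 0.10. This is a description over libraries that fall into 3 groups.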

How the data were processed

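Kidney RNA of 9 mice (Control replicates 2, 4 and 5, HN 4, 8 and 12, PEC 1, 2 and 3) was analysed from one table, and groups follow the disease state and treatment labels, since titles of the Control samples also name HN. The numbers do not pair mice between groups. The authors deposited whole-number counts per gene without normalization. The authors also deposited FPKM, scaled by the total count of each library and gene length. The submitters' processing notes name Bowtie 0.12.2, mm8 and mm9, whereas the coordinates of 51991 of 55144 genes, and of 8 of 10 members, are those of GENCODE M21 on GRCm38. The notes were not taken as the source of the table's build.

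edgeR 4.0.16 (TMM, glmQLFit, glmQLFTest) in R 4.3.3 was fitted to the counts of all libraries and checked on simulated counts. Few genes were changed in that simulation, as many up as down, so it cannot test the choice of scaling between libraries. A standard error is the log2 fold change over the square root of F. TMM-scaled FPKM used gene lengths recovered from counts and FPKM. limma 3.58.1 (eBayes with a trend), DESeq2 1.42.0, other scalings, filters, call rules and offsets for length and GC (spline with 5 degrees of freedom) were alternatives, and each mouse was left out in turn. Ratios were tested with scipy 1.17.1.

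Named were all members, the 4 largest changes in HN against Control among called genes of each list, genes overlapping a member, and 3 genes most like Smad3 and like the most changed tested member in HN against Control. One gene that this rule takes is not reported here. The members and lists were chosen with earlier results of these data known. Replicates differed by more than counting error (chi-square per degree of freedom of at least 62.8).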

Additional observations from a re-analysis of the deposited data

How the results depend on the processing

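Of 606 fold changes of single members under alternatives, 538 kept their direction and their side of the threshold, 42 newly passed, 11 no longer passed and 15 turned in direction. No turned value had passed before. Smad6 in HN against Control, counted as turned, passed as higher in 4 of 21 alternatives, those with library totals and with limma. The causes were not tested. The 11 lost calls were those of Smad4 (4 settings), Smad1 and Skil (1 each) in PEC against Control, Smad7 (3) in PEC against HN and Smad9 (2) in HN against Control, and Smad4 in PEC against Control ranged from -0.20 to -0.23 on the log2 scale where it was lost. With 3 mice per group a difference that did not pass is not shown to be absent, and Smad9 had 66 to 224 counts per library. With library totals, limma with a pseudocount of 1, limma with a pseudocount of 0.1 and limma on rescaled FPKM, HN against Control had 8202, 8106, 8073 and 11010 genes higher and 1603, 1690, 1682 and 876 lower, with 8 members higher under each. In PEC against HN, genes higher were 2428 with library totals, 2433 with limma and a pseudocount of 0.1 and 1217 on rescaled FPKM, and genes lower were 6103 with limma and a pseudocount of 1 and 9130 on rescaled FPKM, where 9 members were lower. In PEC against Control, genes higher were 6535 with library totals, and genes lower were 2704 with library totals and 2896, 2936 and 2577 with limma at a pseudocount of 1, of 0.1 and on rescaled FPKM. Members higher in PEC against Control were 1 without a filter on low values, beside 4438 of 32380 genes. They were 0 with a fold of at least 1.5, by unadjusted or adjusted p, beside 3494 and 3319 of 15508 genes. With only the groups compared, 4 members were higher in HN against Control, beside 4031 of all tested genes.

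In HN against Control, Smad6 was at 0.45 with library totals, 0.022 with upper quartile factors, 0.36 and 0.42 with limma at a pseudocount of 1 and 0.1 and 0.76 on rescaled FPKM. In PEC against HN, Smad2 was at 0.20 with the length trend removed and 0.22 with GC and length trends removed, Smad3 at 0.046 with the length trend removed, and Smad5 at 0.036 and 0.13 with these settings. In PEC against Control, Smad7 was at 0.00014 on rescaled FPKM and Ski at 0.0054 with library totals.

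Leaving out each mouse in turn, members higher ranged from 2 to 4 in HN against Control and from 2 to 3 in PEC against Control, and members lower from 4 to 5 in PEC against HN and from 3 to 4 in PEC against Control. Of all tested genes, those higher ranged from 3293 to 3859 in HN against Control and from 3920 to 4238 in PEC against Control. Those lower ranged from 3329 to 4117 in PEC against HN and from 4020 to 4333 in PEC against Control. Single fold changes on the log2 scale ranged from -0.38 to 0.16 for Smad2 in PEC against HN, from -0.14 to 0.012 for Smad6 in HN against Control and from -0.63 to 0.18 for Ski in PEC against Control. For the ratios, the log2 difference of the TGF-beta to the BMP branch ranged from -0.36 to 0.11 in HN against Control and from -0.17 to 0.29 in PEC against Control. That of Ski and Skil to Smad4 ranged from -0.60 to 0.34 in PEC against HN and from -0.46 to 0.48 in PEC against Control, and that of Smad3 to Smad2 from -0.24 to 0.27 and from -0.065 to 0.44. Skil to Ski ranged from -0.029 to 0.17 in HN against Control, from -1.36 to 0.21 in PEC against HN and from -1.32 to 0.25 in PEC against Control.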
